A study of Mus musculus with 4 samples.

Results

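The genes described here encode the 4 classical families of guidance cues and their receptors: semaphorins with plexins and neuropilins, ephrins with Eph receptors, Slits with Robo receptors, and netrins with Dcc and Unc5 receptors. They were found by gene symbol in the annotation of the arrays, which gave 70 of 29653 genes. These were 20 semaphorins, 12 genes under plexins and neuropilins, 8 ephrins, 14 Eph receptors, 7 Slits and Robos, and 9 netrins and netrin receptors. One of the 70, Plxna4os1, is an antisense transcript of Plxna4 that shares its prefix. Where a gene had several probes, as 26 did, the probe with the highest mean processed signal stands for it.

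RNA came from Swiss 3T3 cells, a mouse fibroblast line, and was hybridised in a single colour (Cy3) to 4 arrays, each of RNA pooled from 3 samples. The groups were Lpar1-/- fibroblasts (KO) at 24 h, Lpar1+/+ fibroblasts (WT) at 24 h, KO at 0 h and WT at 0 h of coculture with wild-type bone marrow-derived mast cells, 1 array each. Lpar1 encodes a receptor for the signalling lipid lysophosphatidic acid. The KO cells are a single-cell clone made by CRISPR/Cas9 with a guide next to exon 3, so a feature of this clone and the loss of Lpar1 cannot be told apart. Cocultures held SCF, the mast cell growth factor, at 100 ng/ml, and the mast cells had been grown in IL-3. The labels do not say how the 0 h cells were handled. The comparisons ask which fibroblast transcripts differ between the genotypes at each time and between the times in each genotype.

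Guidance cues were named for steering growing axons, and fibroblasts use the same ligand-receptor pairs in contact repulsion, migration and adhesion. Class 3 semaphorins and Slits are secreted, netrins are laminin-like and mostly secreted, and ephrins and the other semaphorins of vertebrates are held at the cell surface. Most of the receptors act on the actin cytoskeleton and on cell adhesion.

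Values are log2 processed signal minus the array's own 75th percentile, so that 0 is the 75th percentile. They are compared along a gene and not between genes, since probes differ in brightness. Each group had 1 array, hence no replicate spread, no test and no p-value, and precision is limited by there being 1 array each. Errors are standard errors (SE) from the scanner software's spot error, which covers neither culture nor labelling. A gene counted as measured in a comparison where its probe was well above background on every array of it, and it was called higher or lower at 2-fold, a difference of 1 on the log2 scale.

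The arrays labelled 0 h held abundant mast cell RNA. The median signal of 20 mast cell markers was −4.59 on KO 24 h, −4.50 on WT 24 h, 4.97 on KO 0 h and 4.17 on WT 0 h. Sums of their linear signals were 17.0 and 1.51 on the 24 h arrays (KO, WT) against 733 and 511 on the 0 h arrays. Fewer cells of a type and less RNA per cell cannot be told apart in such samples. Kit, Fcer1a and Cpa3 were above background on both 0 h arrays, and Ms4a2 on those alone. Medians of 20 fibroblast markers were 2.75, 2.85, 1.83 and 2.57 in the same order. Among these markers Thy1 had 4.12 on KO 24 h and 3.73 on KO 0 h, while the WT arrays had −7.41 (24 h) and −7.02 (0 h). Lum was not well above background on 3 arrays. The only Lpar1 probe read −3.61, −3.15, −3.43 and −3.20 and lies at no known place relative to the edit, so it checks nothing about the genotype. Between 62.1% and 72.7% of spots were well above background per array, and no spot was saturated.

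Of the 70 guidance genes, 49 were well above background on all 4 arrays, 12 on some and 9 on none. Of all genes, 57.7% were above background on all 4 arrays and 77% on at least 1. The 8 ephrins were all detected throughout, as were 15 of 20 semaphorins, 9 of 12 genes under plexins and neuropilins, 9 of 14 Eph receptors, 5 of 9 netrin genes and 3 of 7 Slit and Robo genes. The netrin count includes Dcc by a probe that the files place on another chromosome than the gene, while its other 2 probes were above background on 3 arrays and on none. The 9 genes at background everywhere were Sema3e, Plxna4os1, Plxnc1, Epha6, Ephb1, Robo4, Slit1, Ntn4 and Ntn5. Plxnc1 is the plexin known to bind Sema7a. Sema4d, Sema4f, Epha3 and Unc5a were above background on both 0 h arrays and on neither 24 h array. Robo2 was the only member above background on both WT arrays and on neither KO array.

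**Figure D1:**
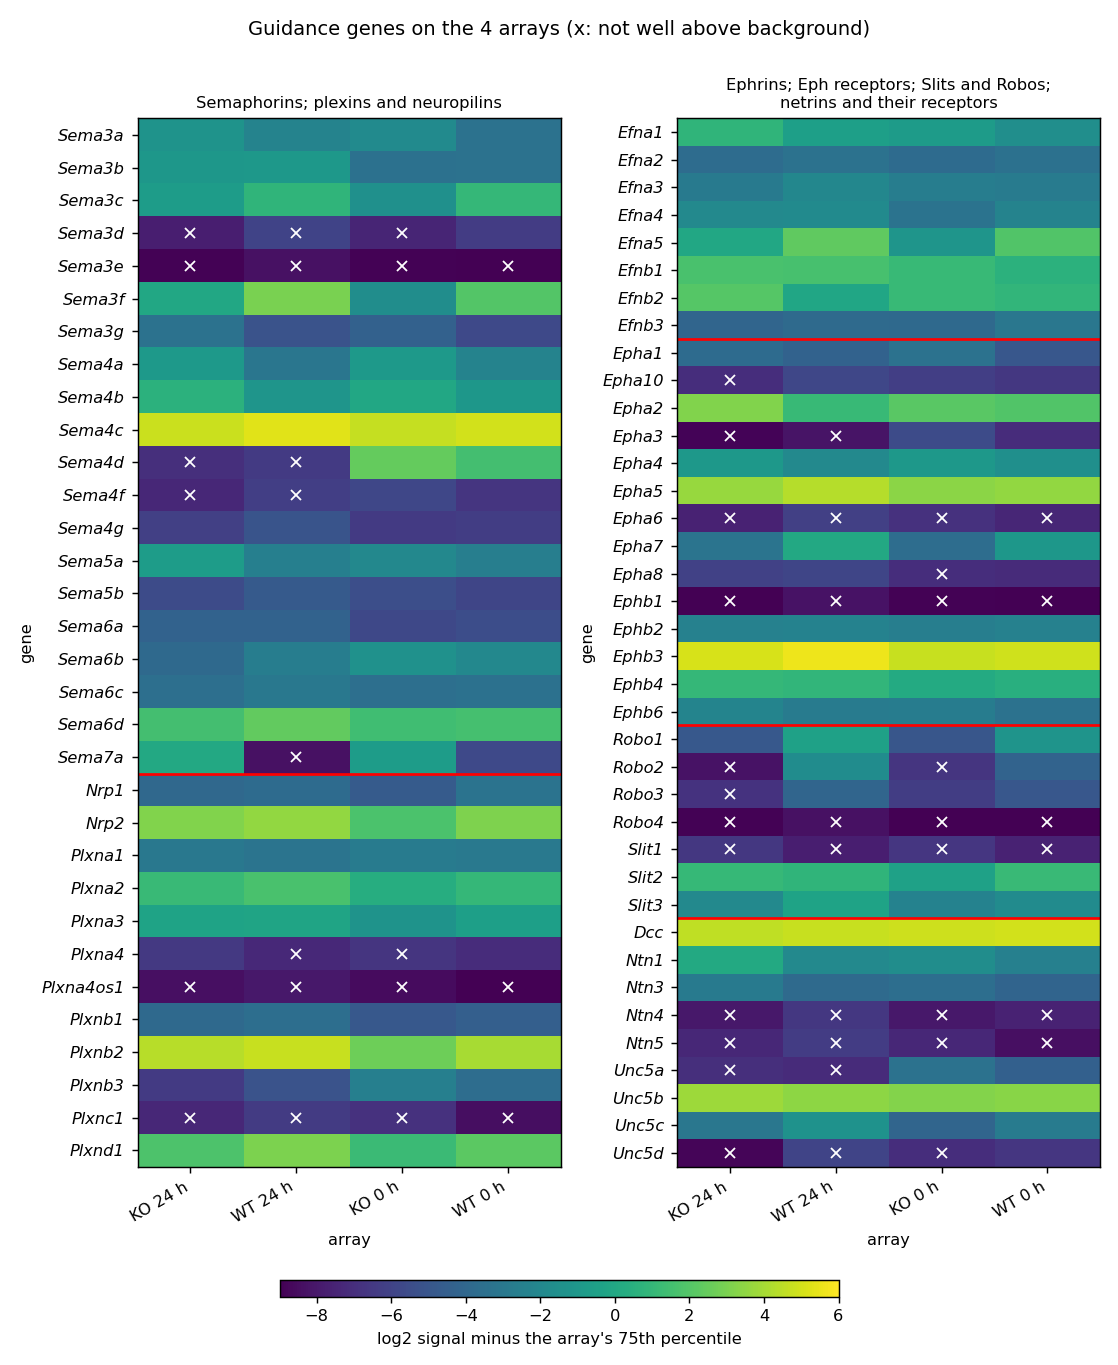
Normalized log2 signal (colour) of the 70 guidance genes on the 4 arrays (columns, KO left of WT at each time), grouped by family with red lines between families; a white cross marks a signal that was not well above background. Rows are read across only, and crosses mark Sema7a on WT 24 h alone, Robo2 on both KO arrays and Sema4d on both 24 h arrays.

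Between KO and WT at 24 h, the largest differences were in Sema7a and Sema4a, higher in KO, and in Robo1, Robo2, Epha7, Sema3f and Efna5, lower in KO. Of 50 measured members, 9 were at least 2-fold higher in KO and 11 at least 2-fold lower, which is 40% of them, against 18% of 17282 measured genes. The background was 5.76% for higher and 12.3% for lower genes. Scaling to spike-in RNA, chosen after seeing the data, made the split 7 higher and 15 lower. With that scaling the background was 3.08% for higher and 25.35% for lower genes. A further member, Sema7a, was higher by an at-least fold of 2 or more, and Robo2 and Robo3 were lower. An at-least fold is given where 1 array of a pair measured the probe and the other did not. It divides the measured signal by a bound for the other array, which is the unmeasured signal itself or, if higher, the dimmest well-above-background signal found there. The median difference of the measured members was −0.20, against −0.093 for all genes. Mast cell markers differed between the 24 h arrays by a median of 0.49 over the 14 that were measured. Most of their sum on KO 24 h was Il1rl1, which read 3.86 there and −2.24 on WT 24 h.

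Sema7a, a membrane-anchored semaphorin known for roles in immune cells and adhesion, differed most. It read 0.060 on KO 24 h and −8.32 on WT 24 h, where it was not well above background, and −0.73 on KO 0 h and −5.72 on WT 0 h. Both KO arrays were thus high and both WT arrays low. The difference was at least 74.7-fold at 24 h, and at 0 h, where both signals were measured, KO was higher by 4.99 (SE 0.23). Its single probe lies on chromosome 9 from 57810607 to 57810666 (mm9). With normexp background correction the difference at 24 h was 4.10.

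The transmembrane class 4 semaphorins Sema4a and Sema4b were also high on both KO arrays. Sema4a read −0.92 on KO 24 h and −3.13 on WT 24 h, and −0.86 on KO 0 h and −2.29 on WT 0 h. Its differences were 2.20 (SE 0.21) and 1.43 (SE 0.20). Sema4b read 0.66 and −1.20 at 24 h and 0.00041 and −1.08 at 0 h (KO, WT), for differences of 1.87 and 1.09. Sema3g, a secreted semaphorin, read −3.36 and −5.17 at 24 h and −4.32 and −5.68 at 0 h (KO, WT), for differences of 1.81 and 1.36. Its second probe was at background on all 4 arrays. With normexp the differences of Sema3g were 1.01 and 0.31, and with the mean of both probes 1.29 and 0.79. Sema5a, a transmembrane semaphorin with thrombospondin repeats, had −0.71 on KO 24 h and −2.55 on WT 24 h, a difference of 1.84 (SE 0.21). At 0 h it read −1.97 and −2.61 (KO, WT), a difference of 0.64, short of 2-fold.

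Other secreted semaphorins went the opposite way. Sema3f, a ligand of neuropilin 2, read 0.0015 on KO 24 h and 2.97 on WT 24 h, and −1.63 on KO 0 h and 2.01 on WT 0 h. Both KO signals lay below both WT signals, by −2.97 at 24 h and −3.64 at 0 h (SE 0.20 each). Sema3c read −0.68 and 0.82 at 24 h and −1.44 and 0.98 at 0 h (KO, WT), with differences of −1.50 and −2.42 that its second probe gave as −1.30 and −2.18. Sema3a, the founding class 3 cue and a ligand of neuropilin 1, was instead higher in KO by 1.57 (SE 0.21) at 0 h and by 0.99 at 24 h, just short of 2-fold. It read −1.31 and −2.30 at 24 h (KO, WT) and −1.80 and −3.37 at 0 h. Its dimmer probe gave 1.98 at 24 h. For Sema3b the genotypes lay within −0.055 (24 h) and −0.087 (0 h) of each other.

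Sema6b and Sema4g, both transmembrane, were lower in KO at 24 h alone, by −1.24 (SE 0.21) and −1.01 (SE 0.35), and with normexp by −0.74 and −0.049. Sema6b read −3.89 and −2.65 at 24 h (KO, WT) and −1.43 and −2.01 at 0 h, so the order of the genotypes turned. Sema4g was dim on every array, with −6.13, −5.11, −6.46 and −6.30 on KO 24 h, WT 24 h, KO 0 h and WT 0 h. In the bright members Sema4c and Sema6d, also transmembrane, the genotypes lay within 2-fold. Sema4c read 4.82, 5.33, 4.66 and 4.96 in that order of arrays, and Sema6d 1.53, 2.37, 1.37 and 1.59, although a dimmer Sema6d probe lay near background.

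Of the 9 measured plexins and neuropilins, 2 were at least 2-fold apart at 24 h, both lower in KO. That is 22.2%, near the 18% of all measured genes. Among the 15 measured semaphorins, 4 were higher and 4 lower, or 53.3%. Plxnd1, the receptor of Sema3e, read 1.79 on KO 24 h and 3.01 on WT 24 h, and 1.21 on KO 0 h and 2.22 on WT 0 h. The KO minus WT difference was −1.22 at 24 h, KO was 2.01-fold lower at 0 h, and its second probe gave log2 differences of −1.13 and −1.18. Plxnb3 was lower in KO at 24 h by −1.33 (SE 0.38), which was −0.20 with normexp. The remaining 7 measured genes of this family lay between −0.51 and 0.24 at 24 h. At 0 h, Nrp1 and Nrp2, the co-receptors of class 3 semaphorins, and Plxnb2, a receptor of class 4 semaphorins, were lower in KO by −1.44, −1.35 and −1.35. With normexp Nrp1 differed by −0.72, short of 2-fold. Nrp2 read 3.18 and 3.54 at 24 h (KO, WT) and 1.75 and 3.10 at 0 h, so that KO 0 h alone was low. Plxnb2 read 4.36 and 4.76 at 24 h and 2.68 and 4.02 at 0 h, and Nrp1 −3.93, −3.75, −4.71 and −3.27 in that order, KO 0 h again being the lowest of each. On KO 0 h the mast cell markers were also highest and the fibroblast markers lowest, and the part of this in the low signals was not tested.

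Among the ephrins, Efna5 was low in KO and Efna1 and Efnb2 were high at 24 h. Efna5, an ephrin anchored to the membrane by a lipid, read −0.010 on KO 24 h and 2.32 on WT 24 h, and −1.16 on KO 0 h and 1.92 on WT 0 h. The genotypes did not overlap, and KO was lower by −2.33 at 24 h and −3.08 at 0 h (SE 0.20 each). Efna1, a ligand of Epha2, read 0.80 and −0.56 at 24 h (KO, WT), a difference of 1.35, and −0.80 and −1.59 at 0 h, a difference of 0.79. Efnb2, a transmembrane ligand of EphB receptors, read 2.02 on KO 24 h and −0.14 on WT 24 h, and 1.11 on KO 0 h and 0.89 on WT 0 h. Its difference of 2.16 at 24 h (SE 0.20) was thus 0.22 at 0 h, and its second probe gave 1.51 and 0.37. Efna4 read −1.93 and −1.83 at 24 h and −3.28 and −2.27 at 0 h (KO, WT), lower in KO at 0 h by −1.01. Efna2, Efna3, Efnb1 and Efnb3 differed by under 2-fold at both times.

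Among the Eph receptors, which are receptor tyrosine kinases, Epha7 was low in KO. It read −3.22 on KO 24 h and 0.040 on WT 24 h, and −3.62 on KO 0 h and −1.04 on WT 0 h. Its 3 probes gave −3.26, −2.19 and −2.60 at 24 h, all in 1 direction. Epha2 read 3.17 on KO 24 h and 1.14 on WT 24 h, and 2.15 on KO 0 h and 1.93 on WT 0 h. Its differences were 2.04 (SE 0.20) at 24 h and 0.22 at 0 h, the same order of arrays as in Efnb2. Epha1 read −3.74 and −4.28 at 24 h and −3.35 and −4.94 at 0 h (KO, WT). Epha1 and Epha3 were higher in KO at 0 h, by 1.60 and 1.53, the second from dim signals (−5.55 in KO and −7.08 in WT). With normexp these were 0.62 and 0.17, short of 2-fold. Epha4 differed by 0.97 at 24 h, and Ephb2, Ephb3, Ephb4 and Ephb6 stayed within 0.64 of 0 at both times, although the second probe of Ephb6 gave −1.21 at 24 h. Ephb3, the brightest of these, read 5.11, 5.61, 4.75 and 4.94 on KO 24 h, WT 24 h, KO 0 h and WT 0 h. The bright probe of Epha5 read between 3.38 and 4.31 on the 4 arrays while its other 2 probes were at or near background, so its values are not read as those of Epha5 transcripts in general.

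At 24 h, Robo1 and Robo2 were the receptors lowest in KO relative to WT. Robo1, a receptor of Slits, read −4.84 on KO 24 h and −0.43 on WT 24 h, and −4.99 on KO 0 h and −1.21 on WT 0 h. KO was lower by −4.41 at 24 h and −3.77 at 0 h (SE 0.22 each), from a probe on chromosome 16 between 73046190 and 73046249 (mm9). Both KO signals of this probe were dim, below −4. A second Robo1 probe was at background on all 4 arrays. With normexp the Robo1 difference at 24 h was −2.95, and with the mean of both probes −2.50. Robo2, a related Slit receptor, read −8.25 on KO 24 h and −1.70 on WT 24 h, and −6.71 on KO 0 h and −4.20 on WT 0 h. Neither KO signal was well above background, and KO was at least 31.8-fold lower at 24 h and at least 5.7-fold lower at 0 h. Its other 2 probes were likewise well above background on both WT arrays and on neither KO array, with −2.66 and −2.70 on WT 24 h. With normexp the difference of Robo2 was −2.66 at 24 h and −0.81 at 0 h.

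Robo3, a Robo receptor known from midline crossing, read −6.79 and −4.14 at 24 h and −6.26 and −4.92 at 0 h (KO, WT), the first not well above background. It was at least 5.87-fold lower in KO at 24 h, and normexp gave −0.61. Its second probe was well above background on 2 arrays only and was not measured in this comparison. That probe read −5.82 and −6.03 at 24 h (KO, WT) and so did not repeat the lower KO signal. The mean of both probes differed by −1.22 at 24 h. Of the ligands, Slit3 read −1.97 on KO 24 h and −0.32 on WT 24 h, a difference of −1.65 (SE 0.20), and −2.35 and −1.75 at 0 h, a difference of −0.59. Slit2 read 1.03 and 0.79 at 24 h and −0.42 and 1.18 at 0 h (KO, WT), so that it was lower in KO at 0 h by −1.60 and differed by 0.24 at 24 h. KO 0 h was again the low array, as with Nrp2 and Plxnb2.

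**Figure D2:**
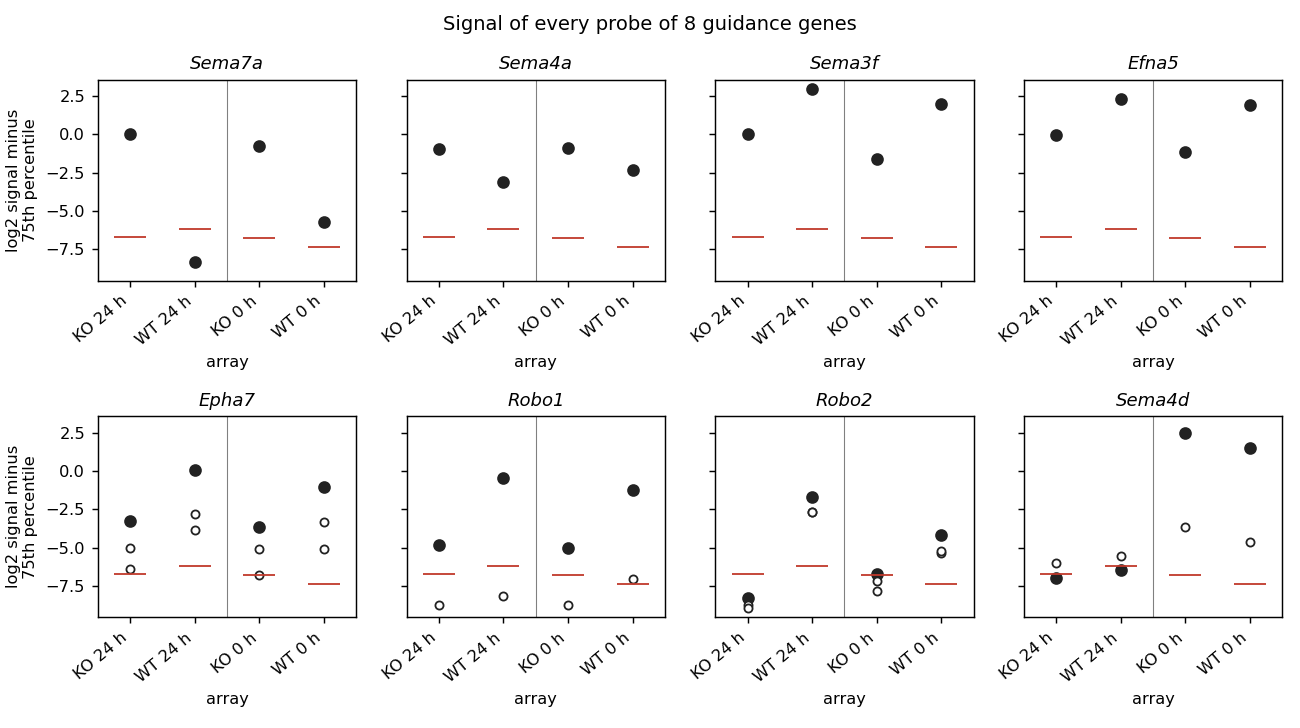
Normalized log2 signal (y axis) of every probe of 8 guidance genes on the 4 arrays (x axis, KO left of WT at each time); filled points are the probe that stands for the gene, open points its other probes, and red bars the lowest signal of any probe well above background on that array. In the filled points the genotypes separate at both times in all panels but that of Sema4d, where those of 24 h lie below the red bars. The open points of Robo1 were at background on all 4 arrays.

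Netrin 1 was high and Unc5c low in KO. Ntn1, a secreted cue that attracts through Dcc and repels through Unc5 receptors, read 0.11 on KO 24 h and −1.92 on WT 24 h, and −1.67 on KO 0 h and −2.47 on WT 0 h. KO was higher by 2.03 at 24 h (SE 0.20) and by 0.79 at 0 h, and its second probe gave 1.59 and 0.86. Ntn3, another netrin, read −2.80 and −3.81 at 24 h and −3.56 and −4.15 at 0 h (KO, WT), for differences of 1.01 and 0.59. Unc5c, a repulsive netrin receptor, read −3.03 and −1.33 at 24 h and −4.13 and −2.77 at 0 h (KO, WT). It was lower in KO by −1.70 and −1.37, and by −1.43 and −0.79 at its second probe. Unc5b, another member of that receptor group, read 3.81, 3.47, 3.23 and 3.32 on KO 24 h, WT 24 h, KO 0 h and WT 0 h and was thus nearly level. The brightest Dcc probe is placed on chromosome 7 in the files, whereas RefSeq has the gene on chromosome 18. Its values of 4.59, 4.75, 4.87 and 4.96 (KO 24 h, WT 24 h, KO 0 h, WT 0 h) are therefore not read as Dcc, whose other 2 probes were dim or at background.

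At 0 h, 9 of 56 measured members were at least 2-fold higher in KO and 13 lower, which is 39.3%, against 13.4% of all measured genes (9.33% higher and 4.07% lower). With spike-in scaling 6 were higher and 15 lower, against 3.14% and 7.87% of all measured genes. The median was −0.12 for the members and 0.057 for all genes. Of the 9 higher members, Sema4a read higher at 0 h than at 24 h in each genotype, with 24 h minus 0 h of −0.061 in KO and −0.83 in WT. Plxnb3 (1.15), Epha3 (1.53) and Unc5a (1.03) were also brighter on both 0 h arrays than at 24 h, as mast cell markers were. Those markers differed between KO 0 h and WT 0 h by a median of 0.87, and pan-leukocyte markers by 1.05, and their part in these differences was not tested.

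Over the 49 members measured on all 4 arrays, genotype differences at 24 h and at 0 h had the same sign in 42. The comparisons share no array, but both set the same KO clone against WT cells. The same-sign share over all genes was not counted. At both times Sema3g, Sema4a and Sema4b were at least 2-fold higher in KO, which is 6.12% of the 49 against 2.53% of all 17107 genes measured on all 4 arrays. Lower at both times were 7, namely Sema3c, Sema3f, Plxnd1, Efna5, Epha7, Robo1 and Unc5c, or 14.3% against 2.36%. At 0 h some of these calls were lost: Sema3g was at 0.31 with normexp, Sema4b at 0.80 with spike-in scaling, Unc5c at −0.82 with normexp, and Plxnd1 at −0.86 with fibroblast scaling. Shares of all genes were not counted for the remaining patterns. A further 9 passed 2-fold at 24 h only, 7 at 0 h only, 22 at neither time, and Plxnb3 in opposite directions. In this last gene KO was higher at 0 h, with −2.50 against −3.65 in WT, and lower at 24 h, with −6.47 against −5.14.

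**Figure D3:**
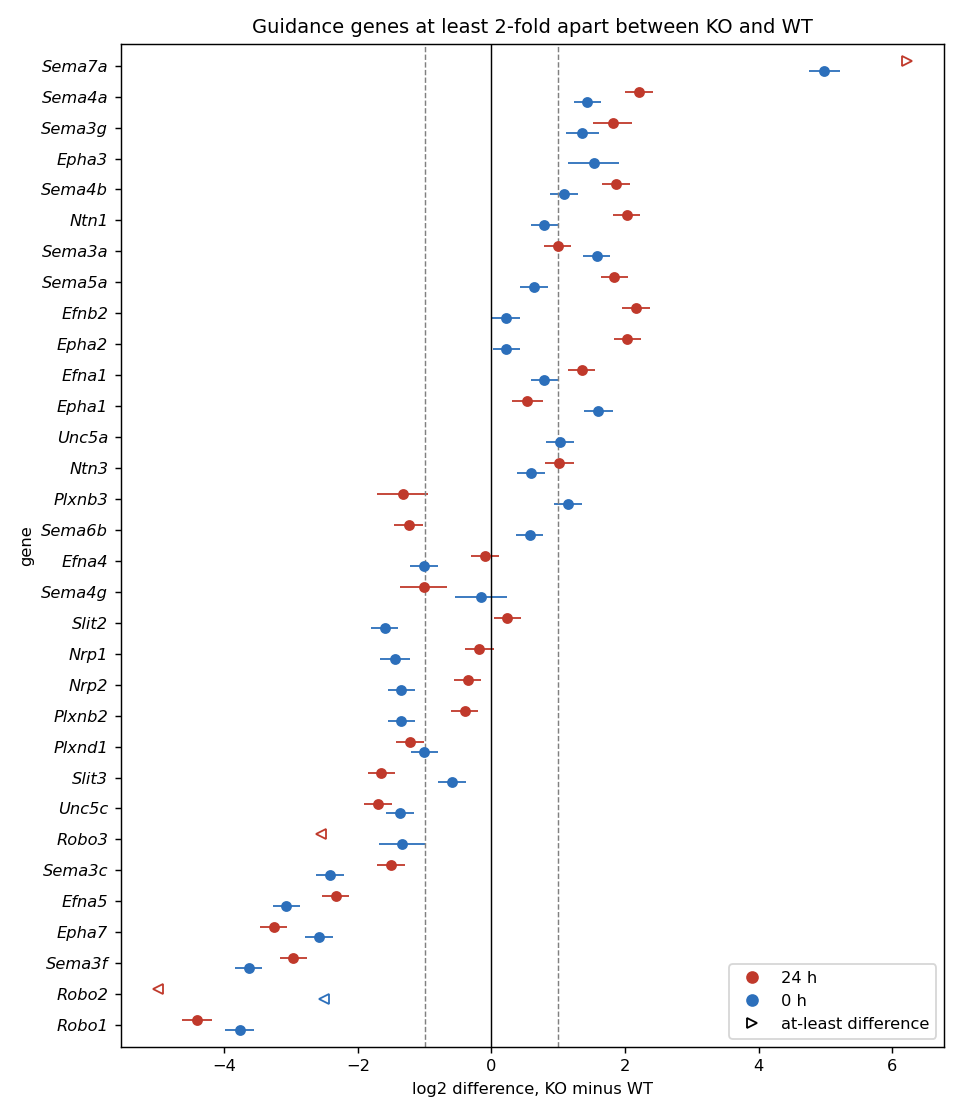
KO minus WT log2 difference (x axis) at 24 h (red) and 0 h (blue) for each guidance gene at least 2-fold apart at either time (y axis), with bars for ± 1 SE of spot error; open triangles are at-least differences and dashed lines mark 2-fold. Points for Sema7a, Sema4a, Sema3g and Sema4b lie right of 1 at both times, and those for Robo1, Robo2, Sema3f, Epha7, Efna5, Sema3c, Robo3, Unc5c and Plxnd1 lie at or left of −1.

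Promoter windows were compared for the 13 members that were apart in the same direction at both times, at-least folds included. They were the 4 higher ones (with Sema7a) and 9 lower ones (with Robo2, and with Robo3 by the probe that stands for it). The RefSeq promoter table (GRCm38.p6) holds all 4 higher and 8 of the lower genes, and 59 of the 70 members. Each window is the 250 bases before an annotated start. On both strands 4 motifs were searched: the AP-1 site TGANTCA, the TEAD site GGAATG, the E-box CACGTG, and the CArG box of SRF, a factor that lysophosphatidic acid is known to activate. AP-1 sites were in 0 of 8 windows of the higher and 0 of 11 windows of the lower genes, against 6.75% of all 32851 windows. TEAD sites were in 1 window of each set (12.6% of all windows) and E-boxes likewise (6.02%). A CArG box stood in 1 window of the lower genes, that of Robo1, and in 1.47% of all windows. The windows of Sema7a and Robo1 are shown because these had the largest measured difference at 0 h in each direction, and each has 1 start in the table. Matches are in capitals, that in Robo1 standing 60 bases before the start. The Sema7a window, chr9:57939862-57940111 on the plus strand, has no match and that of Robo1, chr16:72662899-72663148 on the plus strand, has the CArG box.
Sema7a: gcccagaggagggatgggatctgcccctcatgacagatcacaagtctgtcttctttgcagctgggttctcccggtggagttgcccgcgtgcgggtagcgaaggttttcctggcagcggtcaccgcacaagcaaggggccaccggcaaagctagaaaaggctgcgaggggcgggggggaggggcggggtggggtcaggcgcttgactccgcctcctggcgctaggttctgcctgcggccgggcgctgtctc
Robo1: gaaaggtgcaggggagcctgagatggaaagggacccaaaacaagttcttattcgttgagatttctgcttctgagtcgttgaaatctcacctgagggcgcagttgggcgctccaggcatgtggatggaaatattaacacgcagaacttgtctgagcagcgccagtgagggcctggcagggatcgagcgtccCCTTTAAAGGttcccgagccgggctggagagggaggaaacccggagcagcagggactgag
A match of letters does not show binding, and no match says only that these letters are not in this window.

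Between 24 h and 0 h, most guidance genes read higher at 24 h on the 75th percentile scale and lower when arrays were scaled to fibroblast markers. In KO, 14 of 50 measured members were at least 2-fold higher at 24 h and 2 lower, or 32% against 20.4% of all measured genes (9.48% higher, 10.9% lower). In WT, 12 of 53 were higher and 2 lower, or 26.4% against 21.4% (15.8% higher, 5.57% lower). Medians of the members were 0.61 in KO and 0.55 in WT, against 0.23 and 0.28 for all genes. With fibroblast scaling, the counts were 1 higher and 8 lower in KO and 2 higher and 13 lower in WT. Of all measured genes, 0.74% were then higher and 33.8% lower in KO, and 1.43% higher and 23.1% lower in WT. Medians of the members were then −0.30 and −0.35, and those of all genes −0.68 and −0.63. Spike-in scaling gave 5 higher and 4 lower in WT, against 11.4% and 7.41% of all measured genes. The arrays of these comparisons differ in mast cell RNA, whose markers were lower at 24 h by medians of −9.42 in KO and −8.56 in WT. The part of that in the differences between times was not tested.

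Sema3b was past 2-fold in both genotypes under every alternative. In KO it read −1.04 at 24 h and −3.42 at 0 h, and in WT −0.98 and −3.34, for differences of 2.38 and 2.35 (SE 0.21 each). Both 24 h arrays were thus high in this secreted semaphorin, to nearly the same extent in each genotype. Robo2 was higher at 24 h in WT by 2.50 (SE 0.21), and its other probes gave 2.65 and 2.52. On the 75th percentile scale Efna1 (1.59 in KO, 1.03 in WT), Sema6a (1.43 in KO, 1.17 in WT) and Unc5c (2.14-fold in KO, 2.7-fold in WT) passed 2-fold in both genotypes too. Sema6a, a transmembrane semaphorin, was dim, with −4.30 and −5.73 in KO (24 h, 0 h) and −4.29 and −5.46 in WT. None of these 3 did so with fibroblast scaling in either genotype.

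Higher at 24 h past 2-fold in KO and not in WT were Ntn1 (1.78), Plxnb2 (1.69), Sema3f (1.63), Slit2 (1.45), Nrp2 (1.43), Efna4 (1.35), Sema5a (1.26), Efna5 (1.15), Epha2 (1.02) and Plxna3, a plexin of class 3 semaphorins (1.00). In WT and not in KO they were Robo2, Slit3 (1.43), Epha8 (1.31), Sema4g (1.18), Sema5b (1.13), Sema3a (1.08), Epha7 (1.08) and Efnb1 (1.01), while Efnb2 was lower (−1.04). Whether these differ between the genotypes is given by the difference of changes, not by these lists. Of the genes in both lists, only Robo2 in WT stayed past 2-fold under every alternative. Plxna3 read −0.32 and −1.32 in KO (24 h, 0 h) and −0.22 and −0.54 in WT, and Efnb1 1.72 and 1.08 in KO and 1.64 and 0.62 in WT. Sema5b and Epha8 were near background. Sema5b read −5.55 and −5.39 in KO and −4.73 and −5.87 in WT, and Epha8 −5.86 and −7.17 in WT. Sema4g was also dim, with −5.11 and −6.30 in WT. Below −4, the only spike-in RNA above background on all 4 arrays differed between times by 1.25 in WT and −0.23 in KO. The part of this in the dim calls was not tested.

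Sema4d, a semaphorin known from lymphocytes and other blood cells, was bright on the arrays where mast cell markers were. It read −6.98 on KO 24 h and −6.44 on WT 24 h, neither well above background, against 2.47 on KO 0 h and 1.53 on WT 0 h. The 24 h arrays were at least 574-fold lower in KO and at least 207-fold lower in WT, or 9.16 and 7.70 on the log2 scale. These bounds hold for this scale only. With normexp the differences of Sema4d were smaller, −6.40 in KO and −5.53 in WT. A second, dimmer probe differed by −2.40 in KO and −0.94 in WT. Unc5a, a netrin receptor, read −6.97 and −7.15 at 24 h (KO, WT), neither well above background, and −3.36 and −4.39 at 0 h. It was at least 10.1-fold lower at 24 h in KO and at least 3.42-fold lower in WT, and Epha3 was at least 2.2-fold lower in KO. With normexp the difference of Unc5a in KO was −1.15. That of Unc5a in WT was −0.76 and that of Epha3 in KO −0.40, both short of 2-fold. Plxnb3 was lower at 24 h by −3.96 in KO and −1.48 in WT, and Sema6b by −2.46 in KO, with −0.64 in WT.

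The change in KO exceeded that in WT by at least 2-fold in 6 of 49 members and fell short in 5, or 22.4% against 18% of all genes (4.72% above, 13.3% below), which is near the background. With quantile normalization the counts were 8 and 2, against 7.37% and 8.82% of all genes. The 6 were Efnb2 (1.95), Slit2 (1.84), Epha2 (1.81), Nrp1 (1.26), Ntn1 (1.23) and Sema5a (1.21), and the 5 were Plxnb3 (−2.48), Sema6b (−1.82), Sema5b (−1.29), Epha1 (−1.06) and Slit3 (−1.06). The median SE of this difference was 0.29. Efnb2 and Epha2 read higher at 24 h in KO, by 0.91 and 1.02, and lower in WT, by −1.04 and −0.79. The second Efnb2 probe gave 0.037 in WT. Of the 11, Plxnb3, Sema5b, Epha1 and Nrp1 rest on signals below −4 on at least 1 array, a range in which the only spike-in RNA above background on all 4 arrays differed by −1.48.

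**Figure D4:**
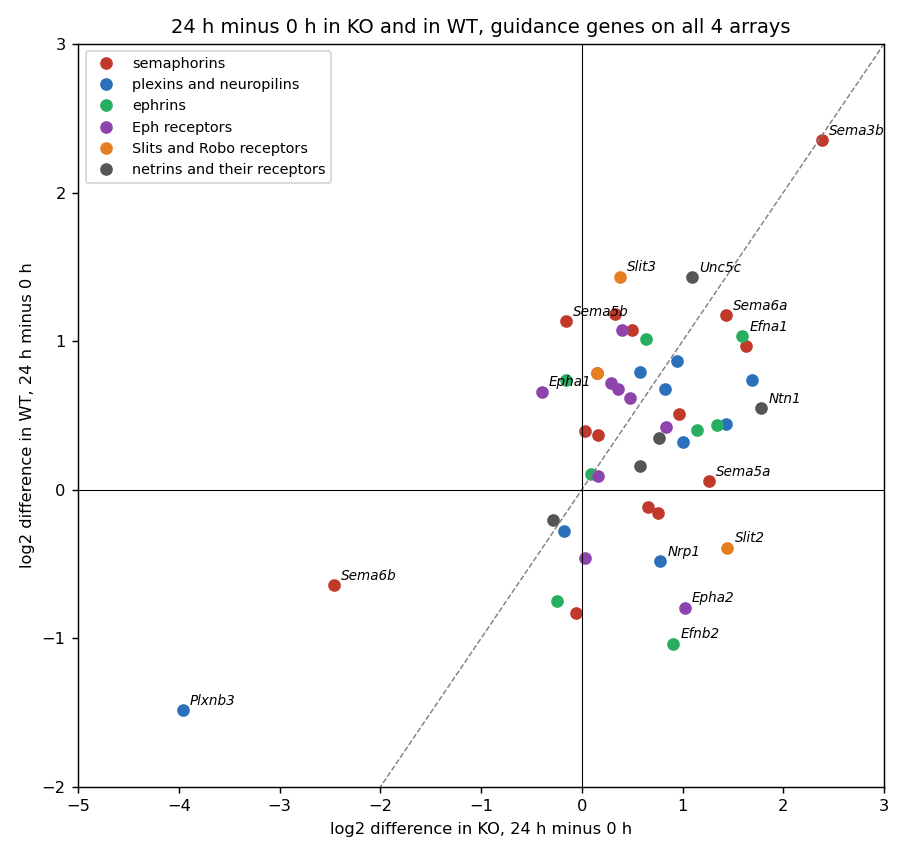
Log2 difference between 24 h and 0 h in KO (x axis) and in WT (y axis) for the 49 guidance genes measured on all 4 arrays, coloured by family; the dashed line marks equal differences. Sema3b lies far up on the line at 2.38 and 2.35, Efnb2, Epha2, Slit2 and Nrp1 lie above 0 in KO and below 0 in WT, and Plxnb3 and Sema6b lie lowest in KO.

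Partners of these pathways were taken as a list of 55 genes: other receptors and ligands, and the adaptors and GTPase regulators that act behind the receptors. At 24 h, 5 of 44 measured partners were at least 2-fold higher in KO and 7 lower, or 27.3%, against 18% of all measured genes (5.76% higher, 12.3% lower). At 0 h 6 of 51 were higher and 4 lower, or 19.6%, against 13.4% (9.33% higher, 4.07% lower). Of the partners measured on both 24 h arrays, the highest were Crmp1 and Dpysl3, which belong to the collapsin response mediators of semaphorin signalling, and Flrt2, a ligand of Unc5 receptors, with 5.85, 1.69 and 1.48. Crmp1 read 0.0073 and −5.85 at 24 h (KO, WT) and −2.15 and −7.39 at 0 h, the last not well above background, so that both KO arrays were high. The lowest of the measured partners at 24 h were the adaptor Nck2 (−1.67), Srgap1 (−1.65), a GTPase-activating protein that binds Robo receptors, and the exchange factor Vav3 (−1.58). Vav3 was dim on KO 24 h, with −5.50 against −3.92 on WT 24 h. The alternative processing was not run on single partners. By at-least folds of 2 or more at 24 h, 4 partners were lower in KO. They were Chn2 (7.41), Dpysl4 (3.27), Ntng1 (2.65) and Draxin (2.15). The 2 higher in KO were Ngef, given below, and L1cam (2.76). These 6 were named after their values were seen, and such folds were not counted over all genes. Chn2 read −6.15 and −3.26 at 24 h (KO, WT) and 1.57 and 0.59 at 0 h. It was thus brighter at 0 h, as mast cell markers were, and their part in it was not tested.

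At 0 h the highest measured partners were Ngef (3.60), the exchange factor ephexin that acts behind EphA receptors, Dpysl3 (1.75) and Ntng2 (1.40). Ntng2 was dim at 0 h, with −5.18 in KO and −6.59 in WT. The lowest were Srgap1 (−2.28), Lrrc4c (−1.50), a netrin-G ligand, and Dock1 (−1.40), an activator of Rac. Ngef read 1.55 on KO 24 h and −5.93 on WT 24 h, where it was not well above background, and was at least 179-fold higher in KO at that time. Srgap1 read −0.75 on KO 24 h and 0.90 on WT 24 h, and −2.14 on KO 0 h and 0.15 on WT 0 h. Both of its KO signals were thus below both WT signals, as in Robo1 and Robo2.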

How the data were processed

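Each of 4 Agilent scanner files holds spot intensity, which per the file headers and the submitters' processing notes the authors extracted with Feature Extraction 12.1.1.1, with probes placed on mm9. Per the file headers, processed intensity had spatial and multiplicative detrending on each array, with no step across arrays. The values in the deposited table are a ratio, namely processed signal over the array's 75th percentile, with quotients of 749.899, 926.641, 1002.93 and 1197.47 (KO 24 h, WT 24 h, KO 0 h, WT 0 h) that are constant within an array. It is linear and uncentred, with column medians of 0.0334, 0.0452, 0.0483 and 0.0442.

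From the scanner files, flagged and control spots were left out, log2 signal was taken, and each array's 75th percentile over 43020 non-control spots was subtracted. Spots of a probe were averaged (39429 probes), and a gene, by the files' own name, took its probe with the highest mean signal (29653 genes). Of 70 members, 67 matched a RefSeq gene of the same symbol by accession and 3 carry accessions not matched. Pandas 2.3.3 and limma 3.58.1 (quantile normalization, normexp with offset 50) were used. Differences and the 2-fold count were tested on simulated arrays. There are no replicates and no tests.

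Members named with their values are those 2-fold apart in any pairwise comparison, those with an at-least fold of 2, and the 10 with the highest mean signal, 45 in all. Partners named are the 3 measured ones at each end of a genotype comparison and those with an at-least fold of 2 at 24 h. The members, lists and rules were chosen with earlier results of these data known, and the motifs and 2 of the alternatives after seeing the data. No exon or UTR annotation of the probes was used here.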

Additional observations from a re-analysis of the deposited data

Results flagged for a closer look

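Plxnb3, a plexin, was at least 2-fold apart between KO and WT in opposite directions at the 2 times: the log2 difference (KO minus WT) was −1.33 after 24 h of coculture, against 1.15 for the 0 h arrays, a difference of −2.48. With 1 array per group this difference was not tested. The 24 h value was −0.46 with quantile normalization and −0.20 with normexp, and the 0 h value 0.73 with normexp and 0.86 with spike-in scaling, all short of 2-fold. Its signal was −6.47 on KO 24 h and −5.14 on WT 24 h, close to the lowest signals above background, and higher on both 0 h arrays, as mast cell markers were. With 1 array per group no array could be set apart from replicates of its group.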

How the results depend on the processing

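No paired analysis was possible because each group has 1 array. No depth applies to arrays; signal over background limits the dim genes, and no alternative supplies the missing replicates. All 72 called gene differences kept their direction under the alternatives run on them. The filter settings reuse the same gene differences, and the deposited values are the same signal scaled almost alike. These settings therefore test neither the direction of a gene nor its passing 2-fold. The stricter filter left 59 of the 72. Past 2-fold in every setting were 15 of 20 at 24 h (not Efna1, Ntn3, Plxnb3, Sema4g and Sema6b), 11 of 22 at 0 h (not Efna4, Epha1, Epha3, Nrp1, Plxnb3, Plxnd1, Robo3, Sema3g, Sema4b, Unc5a and Unc5c), 3 of 16 between times in KO and 2 of 14 in WT. Of 135 summary values, 26 moved, and the cause was not tested. Those from the deposited values, counted among the 135, could hardly move. With quantile normalization, 2 of 49 members had a change lower in KO than in WT, against 8.82% of all genes. With normexp, 4 of 56 were higher and 8 lower in KO at 0 h, against 3.96% and 2.71% of all genes. In WT 6 of 53 were higher and 1 lower at 24 h (2.42% and 3.82%). A lower change in KO was left in 1 of 49 (3.87%). Without the background filter, 19 of 70 were lower in KO at 24 h, against 25.7% of all genes. Between times, 8 were lower in KO (19.7%), and 19 were higher and 6 lower in WT (29.7% and 7.28%). A lower change in KO was seen in 18 (36.5%). With the stricter filter, 5 of 45 were higher in KO at 0 h (4.86% of all genes) and 7 higher between times in WT (4.88%). With the mean of probes, 1 of 53 was lower between times in WT (5.28% of all genes). A lower change in KO was then seen in 8 of 49 (14.9%). Fibroblast scaling gave 1 higher and 8 lower between times in KO (median −0.30), and 2 higher and 13 lower in WT (median −0.35). Shares of all genes were 0.74% and 33.8% in KO and 1.43% and 23.1% in WT. Thy1, far higher in KO, was among the averaged markers, so genotype calls under this scaling depend in part on it. Spike-in scaling, chosen after seeing the data, gave a median of −0.68 between genotypes at 24 h, against −0.57 for all genes. Between times, 8 were higher in KO, against 2.88% of all genes, with medians of 0.20 for the members and −0.19 for all genes. In WT 5 were higher and 4 lower (11.4% and 7.41%).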
